A study of Mus musculus with 6 samples.

Results

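The Hedgehog pathway genes examined here are 9 genes of the mouse: Gas1, Boc, Ptch1, Hhip, Smo, Sufu, Gli1, Gli2 and Gli3. They were taken by gene symbol from the deposited count and FPKM tables, each on a single row, among 55565 genes listed and 26898 with a count in at least 1 library. The rule that picks them uses the symbol and no measured value, though earlier results of these data were known when the 9 symbols were chosen.

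Hedgehog proteins are secreted signals that pattern the neural tube, the limb, the gut and the skeleton of the embryo. Without a signal, the receptor Patched holds the membrane protein Smoothened silent, and the GLI transcription factors are held back by SUFU or cut into repressors. When a Hedgehog protein binds Patched, Smoothened gathers in the primary cilium and full-length GLI proteins turn on target genes, among them Gli1, Ptch1 and Hhip themselves. Fibroblasts of the embryo carry a primary cilium and are widely used to study this signalling.

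The samples were 3 libraries of WT (Mcm8+/+) and 3 libraries of KO (Mcm8-/-) mouse embryonic fibroblasts (MEFs), sequenced as bulk RNA. The MEFs were grown from trunks of E13.5 embryos of Mcm8+/- parents of mixed C57BL/6J and ICR descent, and KO cells lacked exon 7 of Mcm8, a helicase gene, which puts a stop codon in exon 8. Both genotypes were grown in DMEM with serum, immortalized with a lentivirus carrying SV40gp6 and selected with puromycin, and no Hedgehog protein or agonist is named for either. The study's methods call the 3 libraries of a genotype biological repeats. They do not say whether these were separate embryos or cultures, so p-values measure only the spread between these libraries.

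Library totals ran from 12722979 to 21022755 counts. Levels are given as CPM, counts scaled to a common library total with TMM factors, and as FPKM where genes are compared with each other, since FPKM also divides by gene length. A gene passed the test at a Benjamini-Hochberg adjusted p below 0.05 in edgeR's quasi-likelihood fit over all 26898 genes, and "rose" and "fell" are used only of genes that passed. Mcm8 stood at 13.8, 16.6 and 12.8 CPM in WT1, WT2 and WT3 and at 4.20, 4.45 and 4.12 CPM in KO1, KO2 and KO3 (log2 fold change -1.75, SE 0.16, adjusted p = 4.45e-26). All 10 fibroblast and mesenchyme markers averaged at least 1 CPM. WT1 stood apart: its counts differed from those of WT2 and WT3 by a chi-square of 14.3 and 13.3 per degree of freedom, against 4.40 between WT2 and WT3 and 2.63 to 3.05 between KO libraries. WT1 was the lowest WT library for 7 of the 9 Hedgehog genes and for 39.1% of the 13222 genes with a mean of at least 1 CPM, so the fold change of each of the 9 genes is given below also without it.

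Among the 9 genes, Gli1 and Gli2 rose in KO MEFs, none fell (0 with DESeq2 too), and 7 did not pass the test. Of all genes tested, 4.97% rose and 4.03% fell, and of the 13222 genes with a mean of at least 1 CPM, as 8 of the 9 had, 9.08% rose and 7.88% fell. The median log2 fold change of the 9 genes was 0.17, and that of all genes was 0.01. In the edgeR fit Gli1 alone also met the cut-offs the study set for a differentially expressed gene (DEG), a log2 fold change above 1 beside the adjusted p, which 1.75% of genes met upward. The study applied them to its own DESeq2 fit, whose values were not used. In the DESeq2 fit made here Gli1 did not pass (adjusted p = 0.141). In 4 genes (Gli1, Gli2, Smo and Gas1) every KO library was above every WT library, as in 11.6% of genes, and in 0 genes was every KO library below, as in 10.1% of genes. At an unadjusted p below 0.05 in edgeR, 5 of the 9 were higher in KO (9.47% of all genes) and 0 were lower (8.47%). These are shares of the RNA in a culture, so that fewer cells making a transcript and less of it per cell cannot be told apart.

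**Figure D1:**
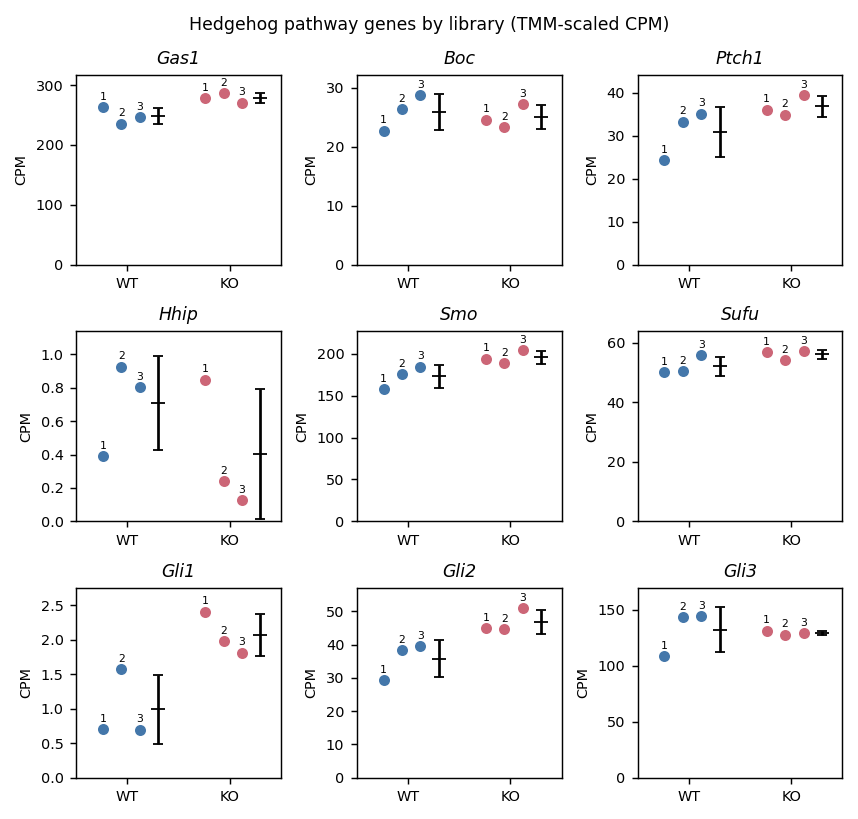
TMM-scaled CPM of the 9 Hedgehog pathway genes in each library. Points are libraries, numbered as in the labels, in WT (blue) and KO (red), and the black bars beside them are the mean and SD of 3 libraries. The KO points lie above all WT points for Gli1, Gli2, Smo and Gas1, WT1 is the lowest of all 6 points for Ptch1, Smo, Gli2, Gli3, Boc and Sufu, and no library exceeds 2.41 CPM for Gli1 or 0.927 CPM for Hhip.

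The levels of the 9 genes spanned several orders of magnitude per unit of length. Gas1 was the highest, at 79.5 to 96.4 FPKM over the 6 libraries (median 89.9), and Smo followed at 28.1 to 36.2 FPKM (median 33.0). Gli3 came next at 11.4 to 14.9 FPKM (median 13.5), ahead of Sufu at 6.51 to 7.39 FPKM (median 7.09). Gli2 (4.28 to 7.37 FPKM, median 6.09) overlapped both Sufu above it and Boc below it (5.10 to 6.40 FPKM, median 5.70), so the order of these neighbours is not set beyond their spread. Ptch1 lay lower, at 1.71 to 2.76 FPKM (median 2.45). The lowest levels were those of Gli1, at 0.138 to 0.479 FPKM (median 0.337), and of Hhip, at 0.0137 to 0.102 FPKM (median 0.0655), and no other neighbours in this order overlapped. The genes most used as a readout of Hedgehog signalling, Gli1, Hhip and Ptch1, were thus the least abundant of the 9 in both genotypes.

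**Figure D2:**
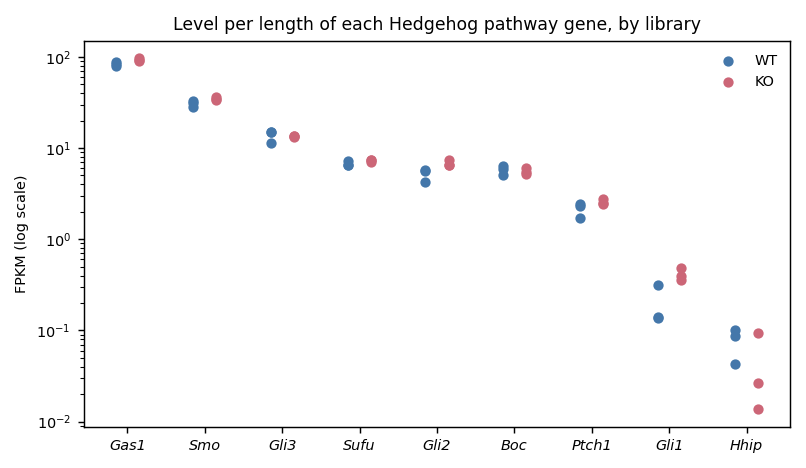
FPKM of each Hedgehog pathway gene on a log scale, ordered by its median over 6 libraries, with WT libraries in blue and KO libraries in red. Gas1 lies near 89.9 FPKM and Hhip near 0.0655 FPKM, and the spread between libraries is widest on this scale for Hhip and Gli1.

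Of the co-receptors, Gas1 encodes a membrane-anchored protein that binds Hedgehog ligands and presents them to Patched (ENSMUSG00000052957, chromosome 13, 60322219 to 60325179, minus strand). Coordinates of genes are those of the deposited tables, which are not those of GRCm38. The study's methods name an Ensembl release whose mouse build is GRCm39. Gas1 had 263, 236 and 247 CPM in WT1, WT2 and WT3 and 278, 286 and 271 CPM in KO1, KO2 and KO3. All KO libraries were above all WT libraries by a small margin (log2 fold change 0.17, SE 0.07, adjusted p = 0.133, 95% interval of the fit 0.03 to 0.30), and Gas1 did not pass the test with all libraries. WT1 was here the highest WT library, and without it the difference was 0.21 with an adjusted p of 0.000135. A lncRNA on the other strand, Gm48488, shares 684 bases with Gas1 and had 16 to 36 counts a library, against 3308 to 5897 for Gas1.

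Boc encodes a related ligand-binding co-receptor of the immunoglobulin superfamily (ENSMUSG00000022687, chromosome 16, 44305412 to 44379260, minus strand). It had 22.7, 26.4 and 28.8 CPM in WT1, WT2 and WT3 and 24.6, 23.3 and 27.3 CPM in KO1, KO2 and KO3. The KO values lay within the WT range, and the log2 fold change was -0.06 (SE 0.10, adjusted p = 0.794, 95% interval -0.26 to 0.14). It was -0.14 without WT1 (adjusted p = 0.465), and its sign turned to 0.03 without WT3.

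Ptch1 encodes the main Hedgehog receptor and is itself a target of the pathway (ENSMUSG00000021466, chromosome 13, 63656142 to 63721412, minus strand). It had 24.2, 33.2 and 35.1 CPM in WT1, WT2 and WT3 and 36.0, 34.9 and 39.4 CPM in KO1, KO2 and KO3. The genotypes overlapped only through KO2, which lay just under WT3, and the log2 fold change of 0.24 (SE 0.09, 95% interval 0.06 to 0.43) did not pass the test (adjusted p = 0.0913). Much of that value came with WT1. Without WT1 the log2 fold change was 0.10 (adjusted p = 0.598), whereas without WT2 it was 0.29 (adjusted p = 0.0472) and without WT3 it was 0.35 (adjusted p = 0.0199). The call for Ptch1 therefore turned on which WT library was counted.

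Hhip encodes a membrane protein that binds and sequesters Hedgehog ligands, and it too is a target of the pathway (ENSMUSG00000064325, chromosome 8, 80692480 to 80784635, minus strand). Its counts were 5, 13 and 15 in the WT libraries and 18, 4 and 2 in the KO libraries, in the order of their numbers. In CPM these were 0.392, 0.927 and 0.805 in WT and 0.850, 0.240 and 0.125 in KO. KO1 stood within the WT range and KO2 and KO3 below every WT library. The log2 fold change was -0.74 (SE 0.59, adjusted p = 0.565), and its 95% interval ran from -1.89 to 0.41. The downward value rested on KO2 and KO3: without KO1 it was -1.92 (adjusted p = 0.202), and without KO2 or KO3 it was -0.48 or -0.34. Without WT1 it was -1.0 (adjusted p = 0.357), and Hhip passed in none of the 6 fits with a library left out.

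Smo encodes Smoothened, the membrane protein that carries the signal into the cell (ENSMUSG00000001761, chromosome 6, 29735502 to 29761364, plus strand). It had 158, 176 and 185 CPM in WT1, WT2 and WT3 and 194, 189 and 204 CPM in KO1, KO2 and KO3. No KO library overlapped the WT range, yet the step was small (log2 fold change 0.18, SE 0.07, 95% interval 0.04 to 0.32) and did not pass the test (adjusted p = 0.108). Leaving out WT3 gave 0.23 with an adjusted p of 0.0461, and leaving out WT1 gave 0.12 (adjusted p = 0.116). Sufu, which encodes the protein that binds GLI factors in the cytoplasm and holds them back (ENSMUSG00000025231, chromosome 19, 46385335 to 46477243, plus strand), had 50.1, 50.3 and 55.7 CPM in WT and 56.8, 54.2 and 57.1 CPM in KO. Its genotypes overlapped at KO2, and the log2 fold change was 0.10 (SE 0.08, adjusted p = 0.576, 95% interval -0.06 to 0.27), or 0.08 without WT1 (adjusted p = 0.654).

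The GLI factors are zinc finger transcription factors that share a DNA-binding domain and differ in role. GLI2 is the main activator at the start of a response, GLI3 acts mostly as a repressor in the limb and other tissues, and GLI1 is an activator made in response to the signal. Of the 3 genes, Gli2 rose in KO, Gli1 rose in KO but passed in only 4 of 14 other settings, and Gli3 did not pass the test.

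Gli2 (ENSMUSG00000048402, chromosome 1, 118761862 to 118981349, minus strand) had 29.4, 38.3 and 39.6 CPM in WT1, WT2 and WT3 and 44.9, 44.7 and 50.9 CPM in KO1, KO2 and KO3. Every KO library was above every WT library, and WT1 was the lowest of the 6. The log2 fold change was 0.38 (SE 0.09, adjusted p = 0.000548), which is 1.30-fold, with a 95% interval of the fold from 1.15 to 1.47. Gli2 passed the test with each library left out in turn, at a log2 fold change from 0.26 to 0.46, the lowest without WT1 (adjusted p = 0.0141). It also passed with DESeq2 (adjusted p = 0.0167) and with limma-voom (adjusted p = 0.0325). It did not pass when log2(FPKM + 1) was tested with limma (adjusted p = 0.204), nor when edgeR tested for a change beyond 1.2-fold (adjusted p = 0.401).

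Gli1 (ENSMUSG00000025407, chromosome 10, 127165751 to 127177843, minus strand) rested on few reads, with counts of 9, 22 and 13 for WT1 to WT3 and of 51, 33 and 29 for KO1 to KO3. These were 0.705, 1.57 and 0.698 CPM in WT and 2.41, 1.98 and 1.81 CPM in KO. The highest WT library, WT2, lay close under the lowest KO library, KO3. The log2 fold change was 1.08 (SE 0.36, adjusted p = 0.0302), which is 2.11-fold, with a 95% interval of the fold from 1.30 to 3.43. The call was lost without WT1 (log2 fold change 0.92, adjusted p = 0.082), WT3 (0.85, adjusted p = 0.185), KO1 (0.95, adjusted p = 0.228) or KO2 (1.11, adjusted p = 0.0628), and it was kept without WT2 (1.56, adjusted p = 0.00284) and without KO3 (1.17, adjusted p = 0.0385). DESeq2 gave an adjusted p of 0.141 and limma-voom an adjusted p of 0.0754. The direction was upward in every one of these fits. Gli1 shares 62 bases with Arhgap9 on the other strand, which had 0, 0 and 2 counts in WT and 3, 3 and 6 counts in KO. On the same other strand lies the lncRNA Gm47200, which shares 9584 bases with the span of Gli1 and had 0 counts in all libraries. Whether strand entered the counting is not given in the sources used here, and reads from shared bases cannot then be assigned to either gene.

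**Figure D3:**
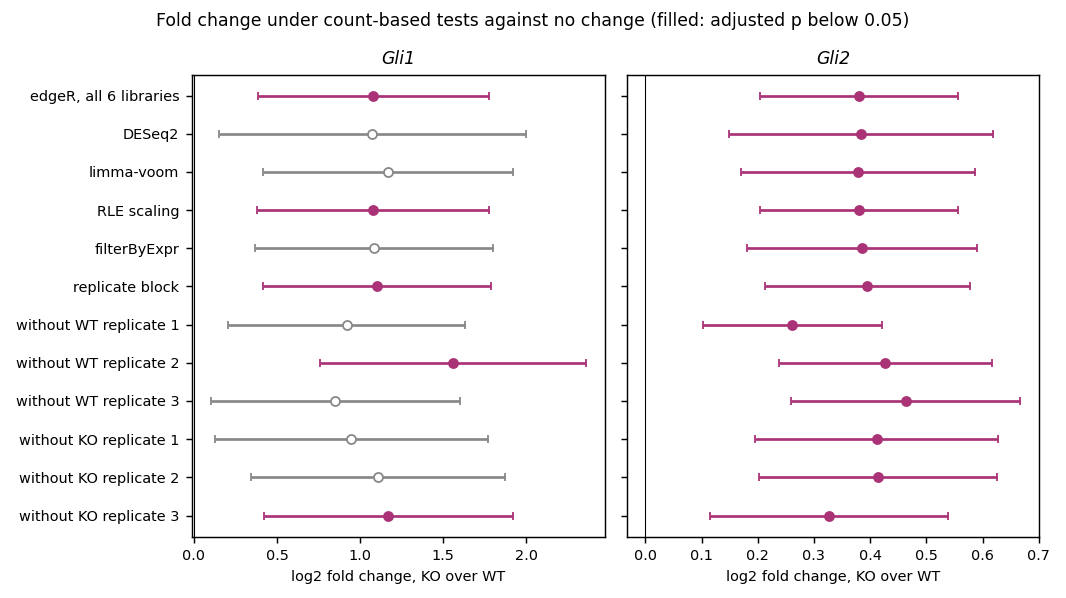
Log2 fold change of Gli1 and Gli2, KO over WT, under the count-based settings that test against no change. Bars are 95% intervals from the SE, and filled points mark an adjusted p below 0.05. All points lie to the right of 0, and Gli2 is filled in every setting shown, whereas Gli1 is open with DESeq2, limma-voom and filterByExpr and without WT1, WT3, KO1 or KO2.

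Gli3 (ENSMUSG00000021318, chromosome 13, 15637820 to 15904611, plus strand) had 109, 143 and 144 CPM in WT1, WT2 and WT3 and 131, 128 and 129 CPM in KO1, KO2 and KO3. The KO libraries fell between WT1 and the other WT libraries, and the log2 fold change was -0.03 (SE 0.07, adjusted p = 0.850, 95% interval -0.18 to 0.11). Without WT1, Gli3 was lower in KO (log2 fold change -0.15, adjusted p = 0.0431). Without WT2 or WT3 the value was 0.03 or 0.04. Gli3 was thus below 0 with all libraries and without WT1, KO1, KO2 or KO3, and above 0 without WT2 or WT3.

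The balance of GLI transcripts was read within each library as a ratio of FPKM values. Gli3 stood at 2.65 ± 0.034 times Gli2 in WT (SD, n = 3, range 2.61 to 2.68) and at 1.99 ± 0.149 times in KO (range 1.82 to 2.09). The ranges did not overlap, and WT1 lay with the other WT libraries on this measure. An exact two-sided permutation test of 3 against 3 libraries gave p = 0.1, the smallest it can give, and 0.15 after adjustment over the 3 ratios of GLI genes. Gli3 was 78.6 ± 30.1 times Gli1 in WT and 33.0 ± 4.37 times in KO (SD, n = 3, exact permutation p = 0.1, adjusted 0.15). Gli2 was 29.8 ± 11.8 times Gli1 in WT and 16.8 ± 3.45 times in KO, and here the genotypes overlapped (SD, n = 3, exact permutation p = 0.2, adjusted 0.2).

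The promoters of the 9 genes were searched for the GLI binding site, since GLI factors act on several of them. RefSeq promoters (GRCm38.p6, 250 bases before to 50 after the start) were given for 7 of the 9 genes, and Gli1 and Boc had no entry. The consensus site of 9 letters, TGGGTGGTC on either strand (reverse complement GACCACCCA), was in none of the 7 and in 0.253% of 32851 promoters. Its core of 7 letters, GGGTGGT (reverse complement ACCACCC), a search added after the promoters had been seen, was in that of Gli2 and in 4.61% of all promoters. Of the wider pathway lists below and the 9 genes together, 68 genes had a promoter and 2 held the core, Gli2 and Pax1, against 5.31% of 27025 genes. These promoters are shown because they belong to the member with the most stable call and to the target with the largest change, with the core in capitals. That of Gli2 is chr1:119053570-119053869 on the minus strand, with the core starting 205 bases before the start, and that of Pax1 is chr2:147364744-147365043 on the plus strand, with the core starting 234 bases before it. A match of 7 letters is a description of the sequence and does not show binding.
Gli2: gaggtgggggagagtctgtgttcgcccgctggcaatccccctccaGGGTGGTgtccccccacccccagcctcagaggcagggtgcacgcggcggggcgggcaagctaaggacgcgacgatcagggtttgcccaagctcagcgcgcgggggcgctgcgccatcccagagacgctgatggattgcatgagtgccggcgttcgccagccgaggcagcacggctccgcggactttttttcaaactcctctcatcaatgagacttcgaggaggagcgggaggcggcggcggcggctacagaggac
Pax1: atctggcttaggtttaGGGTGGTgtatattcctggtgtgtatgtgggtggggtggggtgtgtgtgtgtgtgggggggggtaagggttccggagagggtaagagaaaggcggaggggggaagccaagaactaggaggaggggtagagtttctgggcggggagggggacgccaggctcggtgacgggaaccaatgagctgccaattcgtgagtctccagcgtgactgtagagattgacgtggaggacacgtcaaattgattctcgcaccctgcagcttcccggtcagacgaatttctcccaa

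The promoter of Gli2 was 67.3% G and C with 28 CpG dinucleotides, and that of Ptch1 was 76.3% with 47, against medians of 52.7% and 7 over all promoters. The 7 promoters of the Hedgehog genes ranged from 56.3% (Sufu) to 76.3% G and C and from 12 to 47 CpG dinucleotides. All 7 were thus above the median promoter on both measures.

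Gli1 was the only one of the 9 to meet the DEG cut-offs in edgeR, and the 3 genes with at least 5 CPM whose pattern over the 6 libraries was most like it were Sema3d, Dclk1 and Gm9824, out of 10607 compared. Likeness was the root-mean-square difference in log2 CPM after centring each gene on its own mean, and it was 0.217 for Sema3d, 0.234 for Dclk1 and 0.235 for Gm9824. Sema3d, which encodes a secreted semaphorin, had 3.68, 6.34 and 4.83 CPM in WT and 10.2, 9.56 and 9.80 CPM in KO. Like Gli1, all 3 were highest in WT2 among WT libraries and in KO1 among KO libraries, which follows from how they were picked.

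The rest of the pathway was followed in lists that cover ligands, receptors, the steps from Smoothened to GLI, reported target genes and the primary cilium. Leaving out the 9 genes, 84 genes were listed and 83 had counts, of which 14 rose (16.9%), 6 fell (7.23%) and 63 did not pass the test. Of these 83, 75 averaged at least 1 CPM, and the share that fell was near the 7.88% of all genes at that level, whereas 9.08% of those rose. Their median log2 fold change was 0.06. Of the 7 that met the DEG cut-offs upward, 6 were reported targets, which are described last.

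Transcripts of the ligands were near or at 0. Shh had 0 counts in all 6 libraries. Ihh had 5, 5 and 3 counts in WT and 1, 3 and 0 counts in KO, and Dhh had 1, 0 and 1 counts in WT and 1, 4 and 0 counts in KO, too few for a fold change. Among genes for ligand processing and release, Disp1, which encodes the transporter that frees lipid-bound Hedgehog proteins, had 28.8, 37.0 and 39.2 CPM in WT and 48.1, 49.7 and 48.4 CPM in KO. It rose without overlap (log2 fold change 0.47, SE 0.09, adjusted p = 5.57e-06) and was the only 1 of the 8 genes of this list with counts to pass. Hhat, which encodes the acyltransferase of Hedgehog ligands, averaged 13.3 and 15.2 CPM in WT and KO and did not pass (adjusted p = 0.472), nor did Scube3 at 0.689 and 1.23 CPM (adjusted p = 0.345). Disp2, Scube1 and Scube2 had at most 4 counts in any library.

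Of 7 further receptors and co-receptors, 2 rose and 2 fell. Gpc1, a glypican of the cell surface, had 77.9, 82.8 and 90.7 CPM in WT and 174, 176 and 188 CPM in KO, a log2 fold change of 1.09 (SE 0.07, adjusted p = 4.94e-46). Cdon, the close relative of Boc, rose by a smaller step, from 114 ± 18.7 to 142 ± 3.79 CPM (SD, n = 3, log2 fold change 0.31, adjusted p = 0.000462), and the log2 fold change was 0.19 without WT1 (adjusted p = 0.00704). The glypican genes Gpc4 (-0.40, adjusted p = 1.63e-05) and Gpc6 (-0.34, adjusted p = 0.00402) fell, the latter not without WT3 (-0.25, adjusted p = 0.144) or KO1 (-0.31, adjusted p = 0.077).

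Between Smoothened and GLI, 3 of 20 further genes rose and 0 fell in edgeR (1 was lower at an unadjusted p below 0.05), with a median log2 fold change of 0.09. They were Stk36, the mouse relative of the fly kinase Fused (0.56, adjusted p = 0.0109), Arrb1, which encodes a beta-arrestin (0.39, adjusted p = 0.0316), and Btrc, which encodes the ubiquitin ligase subunit that binds phosphorylated GLI proteins (0.37, adjusted p = 0.00256). Stk36 lost its call without WT1 (adjusted p = 0.142), KO1 (0.102) or KO3 (0.0606). With DESeq2 or limma-voom the calls of Stk36 (adjusted p = 0.0875 and 0.0839), Arrb1 (0.132 and 0.139) and Kif3a, a cilium gene described next (0.105 and 0.121), were lost as well. Arrb1 also lost its call without WT1 (adjusted p = 0.168), WT2 (0.0556), KO1 (0.146) or KO3 (0.274), and Btrc without KO3 (0.0752). Of 31 genes of the primary cilium, Ift140 (0.36, adjusted p = 0.00203) and Kif3a (0.27, adjusted p = 0.0435) rose, Cep290 fell (-0.38, adjusted p = 0.000788), and 28 did not pass. The 9.68% called was below the 17.0% of all genes with at least 1 CPM. Ift140 was not called without KO1 (adjusted p = 0.156), and Kif3a kept its call only when WT3 was the library left out (adjusted p 0.109 to 0.184 in the other 5 fits).

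Among reported targets of the pathway, genes rose and fell. Of 18 targets outside the 9, 6 rose, 3 fell and 9 did not pass, and their median log2 fold change was 0.59. Pax1, a paired-box gene of the sclerotome that forms the vertebrae (chromosome 2, 147203845 to 147235215), had 0.235, 0.285 and 0.859 CPM in WT1, WT2 and WT3 and 3.63, 4.33 and 3.43 CPM in KO1, KO2 and KO3. Its log2 fold change was 2.92 (SE 0.35, adjusted p = 4.82e-15), with a range from 2.64 (without WT1) to 3.82 (without WT3, the WT library with most Pax1) as libraries were left out. Mcm8 lies on the same chromosome. Pax9, its relative on chromosome 12, had 1.33, 0.998 and 0.698 CPM in WT and 3.78, 3.19 and 3.87 CPM in KO (log2 fold change 1.87, SE 0.31, adjusted p = 7.41e-08). Both Pax genes were above the WT range in every KO library, as were 11.6% of all genes.

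Nkx3-2, a homeobox gene that acts with Pax1 and Pax9 in cartilage precursors, had 3, 4 and 7 counts in WT and 21, 28 and 23 counts in KO (log2 fold change 2.13, SE 0.52, adjusted p = 0.000908). Bmp4, a secreted signal that Hedgehog induces in gut mesenchyme, had 1.72, 1.14 and 2.58 CPM in WT and 6.37, 6.67 and 7.31 CPM in KO (log2 fold change 1.86, SE 0.23, adjusted p = 2.18e-14). The forkhead genes Foxl1 (1.70, adjusted p = 0.00109) and Foxf2 (1.65, adjusted p = 0.000369, and 0.054 with limma-voom), which mark that mesenchyme, rose as well, from at most 20 counts in any WT library. With a library left out they ranged from 1.21 (adjusted p = 0.0421) and 1.30, both without WT2, to 2.41 and 2.25, both without WT3. None of these 6 had a KO library within its WT range. They were named because they passed the test, so this adds no support to the calls.

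**Figure D4:**
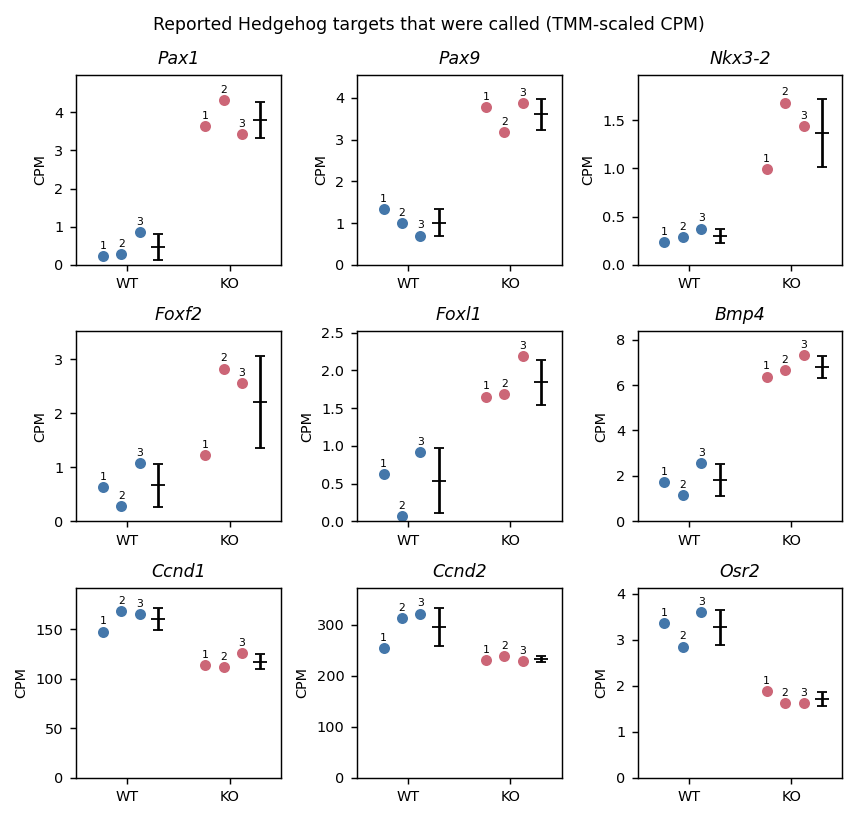
TMM-scaled CPM of the 9 reported Hedgehog targets, outside the 9 pathway genes, that passed the test. Points are numbered libraries of WT (blue) and KO (red), and black bars are the mean and SD of 3 libraries. Pax1, Pax9, Nkx3-2, Foxf2, Foxl1 and Bmp4 are higher and Ccnd1, Ccnd2 and Osr2 lower in every KO library than in every WT library.

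The 3 targets that fell, named after their values were seen, were Ccnd1, Ccnd2 and Osr2. Ccnd1 and Ccnd2 encode the D-type cyclins that drive entry into the cell cycle, and both were abundant. Ccnd1 fell from 160 ± 11.2 to 117 ± 7.75 CPM (SD, n = 3, log2 fold change -0.45, adjusted p = 3.02e-08). Ccnd2 fell from 296 ± 37.3 to 233 ± 5.35 CPM (SD, n = 3, log2 fold change -0.35, adjusted p = 1.26e-05). Osr2, an odd-skipped zinc finger gene, fell by 0.93 on the log2 scale (adjusted p = 0.0145), and not without WT3 (adjusted p = 0.075), KO2 (0.0585) or KO3 (0.0623), nor with DESeq2 (adjusted p = 0.0569). The targets that passed therefore did not move in a single direction.

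Markers of other cell types were read beside these genes. Of 4 cartilage markers, Sox9 (log2 fold change 1.37) and Acan (1.12) rose. Col2a1, the defining collagen, did not pass, with 0.698 to 1.07 CPM in WT and 0.708 to 1.26 CPM in KO, and Comp had at most 11 counts. The list summed to 14.0 to 16.4 CPM in WT and 36.1 to 37.1 CPM in KO. Of 5 mesothelial markers only Msln rose, and the list summed to 2.95 to 3.49 CPM in WT and 43.2 to 48.7 CPM in KO, with Wt1 at no more than 7 counts. Of the 10 fibroblast markers 2 rose, Col1a1 (log2 fold change 0.20) and Col3a1 (0.29). Thy1 (-1.03) and Pdgfrb (-0.74, adjusted p = 1.06e-25) fell, the latter from a mean of 472 to 282 CPM. The summed list ran from 15627 to 17977 CPM over WT libraries and from 17371 to 17835 over KO libraries. Most of this sum was Col1a1 (mean 8634 CPM for WT, 9940 for KO) and Col1a2 (5521 and 5133). It therefore says little of the other markers. Tubb3 alone rose among 5 Schwann and neural markers (21.8 to 24 against 32.6 to 34.3 CPM in sum), and endothelial, epithelial, blood and skeletal muscle lists summed to at most 4.33 CPM in any library, and of these only Cdh1, which encodes the epithelial cadherin, had an unadjusted p below 0.05 in edgeR (0.0249). Xist was lower in KO (log2 fold change -1.31), at 940, 1359 and 1290 CPM in WT and 474, 494 and 475 CPM in KO. The Y-linked Ddx3y was higher in KO (2.46), at 8.70, 6.77 and 7.84 CPM in WT and 40.5, 48.7 and 38.7 CPM in KO. Every library thus held transcripts of both genes. Their levels moved with the genotype, so sex and genotype cannot be told apart here. The part of these differences in the results for Gli1, Gli2 and the targets was not tested.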

How the data were processed

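RNA of 3 WT and 3 KO MEF libraries was measured. Per the study's methods, the authors aligned read pairs with HISAT2 (2.0.5 in the submitters' processing notes) and counted reads per gene with featureCounts (1.5.0-p3 there). They deposited raw counts and FPKM values, which divide the counts by gene length and library total. The notes list GRCm38, the methods a later Ensembl release. Of 52044 gene identifiers shared with GRCm38, 2.8% had the same start and end, so the tables' coordinates are not GRCm38. The authors' own fold changes were not used.

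Counts were tested with edgeR 4.0.16 (TMM, quasi-likelihood, no covariate; limma 3.58.1, R 4.3.3) on the 26898 genes that any library expressed (FPKM above 0), and with DESeq2 1.42.0, limma-voom and other settings as alternatives. Because edgeR estimated infinite prior degrees of freedom, the spread assigned to a gene is that of genes of its level, and p-values are too small where a gene varies more than that. Values after ± are SDs. The genes and lists were chosen with earlier results of these data known. Named genes were all 9 members, the genes of the ligand list, the called genes of each other list with the largest change (at most 6), and the 3 nearest patterns to a DEG. Targets that fell and marker genes were named outside this rule. Values of 1 further gene are not reported here.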

Additional observations from a re-analysis of the deposited data

How the results depend on the processing

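The number of the 9 genes that rose was 2 with all libraries and edgeR. It was 1 with DESeq2, with limma-voom, with the filterByExpr filter and under the DEG cut-offs in edgeR, and it was 0 with limma on log2(FPKM + 1), with limma on log2(FPKM + 0.1) and in a test against a 1.2-fold change. It ranged from 1 to 3 with a library left out, and the number that fell from 0 to 1 (Gli3 without WT1, against 0 with all). Of the other pathway genes, 14 rose and 6 fell, against 11 and 5 with DESeq2, 10 and 6 with limma-voom, 5 and 2 on log2(FPKM + 1), 4 and 2 on log2(FPKM + 0.1), 7 and 1 against a 1.2-fold change, and 7 and 0 under the DEG cut-offs in edgeR. With a library left out, Gli3 ranged from -0.151 (without WT1) to 0.0366 (without WT3) and was 0.0271 without WT2, and Boc ranged from -0.143 (without WT1) to 0.0262 (without WT3). Over 43 named genes, 509 of 602 single-gene values stayed on their side of the threshold, 82 lost and 8 gained a call, and 3 changed sign. Across all genes 1337 rose and 1083 fell, against 532 and 380 on log2(FPKM + 1), 527 and 389 on log2(FPKM + 0.1), 680 and 373 against a 1.2-fold change, 945 and 667 without KO1, 1015 and 645 without KO3, and 1644 and 1620 without WT1, where 50.4% of calls were higher against 55.3% with all libraries. RLE factors shifted the median log2 fold change by -0.000882. Libraries of the same number did not deviate together (r = -0.00343, -0.00544 and 0.0416), so no pairing by number was seen. With 3 libraries a genotype this cannot exclude a shared litter or day, which the labels do not give. Testing without a filter on low values used the same genes and is not counted here. With the replicate number as a block, 2 of the 9 genes rose and 0 fell, as did 15 and 6 of the other pathway genes. The cause of these differences was not tested. Gli1, Hhip and the ligands rest on few counts, and depth limits what can be said of them.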
